A study of Mus musculus with 3 samples.

Results

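The droplets described here held almost no RNA: each barcode was seen with 1 to 100 unique molecular identifiers (UMIs, each standing for 1 captured RNA molecule), well below the content of a captured cell. All such barcodes of 3 mouse liver single-cell libraries were taken and their UMIs were summed to 1 value per gene and library, which gives a bulk-like reading of liver RNA that needs no cell calling. They numbered 3402331 of 3603190 barcodes with at least 1 UMI: 908385 of 956767 in the control library, 1111784 of 1189217 in the holo-transferrin library and 1382162 of 1457206 in the high-iron diet library. All 3 mice were wild type and had eaten an iron-deficient diet of 2 to 6 ppm iron for 1 week, the control included. The control (IDD) received nothing further. The second mouse (IDD+HTF) was given 10 mg of holo-transferrin, transferrin with its iron bound, into the tail vein. The third (IDD+HID) then ate food holding 2% carbonyl iron, over 18 h. The labels used here give no time between injection and dissection, and no strain, sex or age. Hepatocytes were mixed back as a small share into a suspension made up mostly of non-parenchymal cells, so the share of hepatocytes was set by hand. With 1 mouse and 1 library per group there was no replicate check, and no test between groups was possible.

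RNA that leaks from broken cells is carried into every droplet of such a run. In liver much of it comes from hepatocytes, which break easily and are rich in messenger RNA for plasma proteins. Hepatocytes are also where body iron is regulated: endothelial cells of the liver sinusoids make the ligands BMP6 and BMP2, these act on BMP receptors of the hepatocyte together with the co-receptor hemojuvelin, and the hepatocyte responds by making hepcidin, the hormone that blocks iron release into plasma. The same cells make fatty acids and sterols from dietary carbon after a meal and burn fatty acids in fasting.

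Levels of hepatocyte genes are given per 1000 UMIs of a reference of 4 abundant hepatocyte transcripts, Alb, Apoa1, Apob and Ttr, which encode albumin, a pair of apolipoproteins and transthyretin. Levels of genes of other cells are given per 1000000 UMIs (CPM) of a total without 37 mitochondrial genes and 5 ribosomal or repeat features (Gm42418, Gm26917, AY036118, Lars2 and CT010467.1). Ratios stand with an exact conditional binomial 95% interval in brackets, which takes the reference or the total as known and covers counting error only. In a pooled reading of this kind, fewer cells of a type and less RNA per cell cannot be told apart.

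The 3 libraries differed in what a low droplet was. Droplets with a single UMI made up 70.7%, 72.1% and 69.5% of low droplets in IDD, IDD+HTF and IDD+HID. Droplets with 51 to 100 UMIs held 52.5% of the low-droplet UMIs in IDD, against 10.6% in IDD+HTF and 6.79% in IDD+HID. In the order of size, the 40000 barcodes that follow the 30000 largest, taken as droplets without a cell, had medians of 97, 205 and 231 UMIs in IDD, IDD+HTF and IDD+HID and ran from 60 to 176, 142 to 313 and 141 to 380 UMIs. The limit of 100 UMIs therefore fell inside this range in IDD and below it in the other libraries. Values from these rank-chosen empty droplets are given beside the main ones where they bear on a result, over the 37904, 39569 and 39717 of them whose barcode was not of cell size (1000 or more UMIs) in another library.

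The low droplets summed to 3770157, 2184188 and 2536442 UMIs, or 10.9%, 3.94% and 3.36% of each library. Mitochondrial genes took 44.1%, 37.8% and 42.6% of these UMIs and the 5 ribosomal or repeat features 16.3%, 6.92% and 5.09%, which left totals of 1496403, 1206896 and 1326894. The libraries also shared barcodes. Of barcodes with 1000 or more UMIs in 1 library, 99.9% to 100% were also listed in each other library, at a median of 13 to 19 UMIs. Low droplets whose barcode held over 100 UMIs in another library carried 19.8%, 30.7% and 23.2% of the low-droplet UMIs. Results are therefore also given for unshared droplets, in which all such barcodes were left out. Barcodes that were low in both IDD and IDD+HID numbered 359209, which is 39.5% of the low droplets of IDD and 26.0% of those of IDD+HID.

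**Figure D1:**
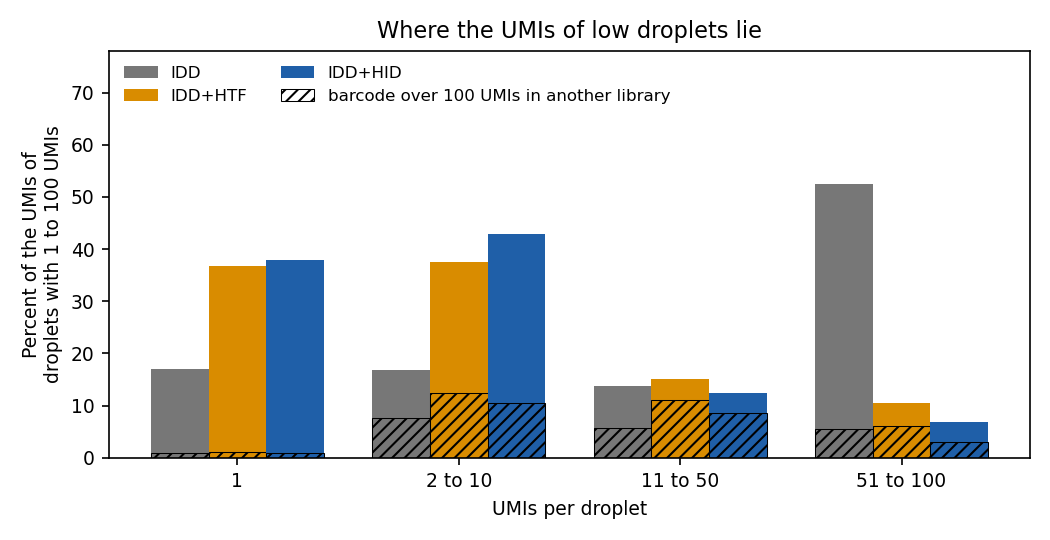
Where the UMIs of low droplets lie in each library. Bars give the percent of the UMIs of droplets with 1 to 100 UMIs that lie in droplets of 1, 2 to 10, 11 to 50 and 51 to 100 UMIs, and the hatched share comes from barcodes with over 100 UMIs in another library. Droplets with 51 to 100 UMIs hold 52.5%, 10.6% and 6.79% in IDD, IDD+HTF and IDD+HID.

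Summed over all low droplets, the reference transcripts took a larger share in both iron libraries. They summed to 33276, 36514 and 50998 UMIs in IDD, IDD+HTF and IDD+HID, which is 22237, 30254 and 38434 CPM. The level in IDD+HID was 1.73-fold that of IDD (1.70 to 1.75), 1.95-fold in unshared droplets and 3.57-fold in rank-chosen empty droplets. In IDD+HTF it was 1.36-fold that of IDD (1.34 to 1.38), 1.49-fold in unshared droplets and 2.17-fold in rank-chosen empty droplets. Within droplets of one size the ratios were smaller for IDD+HTF: 0.995 (0.977 to 1.01) at 1 to 10 UMIs, 1.09 (1.05 to 1.15) at 11 to 50 and 0.970 (0.928 to 1.01) at 51 to 100. For IDD+HID they were 1.20 (1.17 to 1.22), 1.09 (1.05 to 1.15) and 1.95 (1.88 to 2.03). The 1.36-fold difference of IDD+HTF was thus not seen within any of these size ranges. A pair of features weighed on the total: Mir6236 and Alkbh5 together took 20.3%, 1.99% and 1.51% of it in IDD, IDD+HTF and IDD+HID. In barcodes of cell size, those rich in the reference held Mir6236 at 3.16 and Alkbh5 at 3.79 times the level in those poor in it. Without this pair the reference levels were 27903, 30870 and 39024 CPM. The make-up of the reference was similar in IDD and IDD+HID, with Alb at 53.0% and 56.5%, Apoa1 at 24.0% and 23.8%, Apob at 8.84% and 6.85%, and Ttr at 14.2% and 12.8%. In IDD+HTF Apoa1 took 33.3% and Alb 47.6%, so ratios of that library depend more on Apoa1.

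Hepcidin messenger RNA was higher in the iron-fed library than in the control and the holo-transferrin library. Hamp (chromosome 7, 30942368 to 30944032, minus strand, GRCm38) gave 278, 390 and 1046 UMIs in IDD, IDD+HTF and IDD+HID, or 8.35, 10.7 and 20.5 per 1000 reference UMIs. It was 2.46-fold higher (2.15 to 2.81) in IDD+HID and 1.28-fold higher (1.09 to 1.5) in IDD+HTF than in IDD. In unshared droplets it was 3.52-fold higher and 1.41-fold higher, and in rank-chosen empty droplets 3.63-fold higher and 1.29-fold higher. As CPM Hamp stood at 186, 323 and 788, 4.24-fold higher in IDD+HID and 1.74-fold higher in IDD+HTF. Among hepatocyte-enriched genes with 200 or more UMIs, none had a higher ratio per reference in IDD+HID. Hamp2, the nearby copy whose product has no established role in iron control (chromosome 7, 30922372 to 30924681), gave 28, 35 and 78 UMIs, or 0.841, 0.959 and 1.53 per 1000 reference UMIs. It was 1.82-fold higher (1.17 to 2.91) in IDD+HID and 1.14-fold higher (0.673 to 1.94) in IDD+HTF, and 2.02-fold higher in unshared droplets of IDD+HID. The copies are close in sequence, and how reads that fit both were counted is not given in the sources used here.

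The 150 bases before the start of each hepcidin gene are printed because the copies differ at a 6-base element through which BMP signals are known to act on Hamp. Capitals mark GGCGCC, the core of that element, and TTCNNNGAA, a motif bound by STAT proteins, both of which read the same on the other strand. The sequences are from RefSeq (GRCm38.p6, minus strand), chr7:30944030-30944179 for Hamp and chr7:30924182-30924331 for Hamp2, counted from the start that RefSeq gives. For both genes that start lies inside the span given above, which is GENCODE's.
Hamp: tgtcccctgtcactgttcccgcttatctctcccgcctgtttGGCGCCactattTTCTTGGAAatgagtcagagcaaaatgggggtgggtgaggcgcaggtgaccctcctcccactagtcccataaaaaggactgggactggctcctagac
Hamp2: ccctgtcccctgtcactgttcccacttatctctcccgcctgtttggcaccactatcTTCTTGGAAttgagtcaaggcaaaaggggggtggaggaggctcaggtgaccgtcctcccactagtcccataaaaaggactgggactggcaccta
GGCGCC lay 109 to 104 bases before the start of Hamp and was not in this window of Hamp2, where the aligned bases carry G4A, counted from 1 at the motif's 5′ end. TTCTTGGAA lay 97 to 89 bases before the start of Hamp and 94 to 86 before that of Hamp2. Of 147 aligned bases 135 were identical (91.8%). Of 32851 promoters in the table, 7.01% held GGCGCC and 4.09% held TTCNNNGAA within 150 bases of the start.

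Genes that sense iron upstream of hepcidin did not all stand on the same side of the control. Transferrin receptor 2 (Tfr2), which binds holo-transferrin, gave 103, 129 and 150 UMIs and stood at 3.10, 3.53 and 2.94 per 1000 reference UMIs. It was 1.05-fold lower (0.811 to 1.36) in IDD+HID and 1.14-fold higher (0.874 to 1.49) in IDD+HTF, both intervals including 1. As CPM Tfr2 was 1.64-fold higher (1.27 to 2.13) in IDD+HID, and 1.58-fold higher (1.22 to 2.05) relative to the median hepatocyte-enriched gene, so its direction turned with the scale. Hemojuvelin (Hfe2 in these files; chromosome 3, 96525172 to 96529210) gave 47, 46 and 24 UMIs and stood at 1.41, 1.26 and 0.471 per 1000. It was 3.0-fold lower (1.80 to 5.13) in IDD+HID and 1.12-fold lower (0.731 to 1.72) in IDD+HTF, and of the 3 libraries the iron-fed one was lowest. Hfe2 in IDD+HID was 1.74-fold lower (1.04 to 2.97) as CPM, 5.23-fold lower (2.71 to 10.7) in unshared droplets and 5.14-fold lower (3.44 to 7.57) in rank-chosen empty droplets. Tmprss6, the protease that cleaves hemojuvelin (chromosome 15, 78439667 to 78468634), gave 242, 373 and 249 UMIs and stood at 7.27, 10.2 and 4.88 per 1000. It was 1.49-fold lower (1.24 to 1.78) in IDD+HID and 1.4-fold higher (1.19 to 1.66) in IDD+HTF, on opposite sides of the control per reference. As CPM it was 1.16-fold higher (0.968 to 1.39) in IDD+HID, on the same side as IDD+HTF (1.91-fold higher, 1.62 to 2.26). Hfe, the haemochromatosis protein, stood at 1.80, 2.52 and 2.29 per 1000 and was 1.27-fold higher (0.924 to 1.77) in IDD+HID, but stood at -0.42 on the log2 scale in rank-chosen empty droplets. Of 12 listed genes of hepcidin and its sensors, 10 reached 50 UMIs in the pair of libraries: Hamp and Hamp2 were at least 1.5-fold higher in IDD+HID and Hfe2 at least 1.5-fold lower, with a list median of 0.01 on the log2 scale. Relative to the median hepatocyte-enriched gene 7 of the 10 were higher and 1 lower (median 0.75), beside 17.2% and 29.2% of such genes. Over all 6687 genes measured at this depth 3.23% were that far higher and 26.3% that far lower per reference, with a median of -0.27.

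The ligands that endothelial cells send to hepatocytes were higher in the iron-fed library as CPM. Bmp6 (chromosome 13, 38345107 to 38500302) gave 11, 18 and 39 UMIs, or 7.35, 14.9 and 29.4 CPM, and was 4.00-fold higher (2.01 to 8.66) in IDD+HID and 2.03-fold higher (0.907 to 4.75) in IDD+HTF. Bmp2 (chromosome 2, 133552159 to 133562885) gave 345, 464 and 622 UMIs, or 231, 384 and 469 CPM, and was 2.03-fold higher (1.78 to 2.33) and 1.67-fold higher (1.45 to 1.92). In unshared droplets of IDD+HID Bmp6 was 8.75-fold higher and Bmp2 5.35-fold higher. The other measured members of the 10-gene ligand list were Inhbb, the activin B subunit (16, 20 and 39 UMIs; 2.75-fold higher, 1.5 to 5.27, in IDD+HID), and Gdf15, a stress-induced member of the family (23, 23 and 45 UMIs; 2.21-fold higher, 1.31 to 3.82). All 4 were thus at least 1.5-fold higher, beside 44.1% of 6687 measured genes higher and 5.53% lower, and a median of all genes of 0.52 on the log2 scale. Relative to that median 3 of the 4 were at least 1.5-fold higher. Bmp6, Inhbb and Gdf15 reached the UMI minimum for a measured gene mainly through their count in IDD+HID. With their counts in IDD, they would not have been measured without a higher count there. Both counts of ligands are thus largely set by that minimum and carry little weight for the list. Bmp2 passed the minimum in either library alone. Markers of sinusoidal endothelial cells, which make both BMP ligands, summed to 3583, 5982 and 9111 CPM in the same libraries, with 13 of 13 members at least 1.5-fold higher in IDD+HID, and their part in the ligand ratios was not tested.

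The ratios of BMP signalling targets other than hepcidin depended on the scale, and per reference they were under 1.5-fold in IDD+HID. Id1, a transcription regulator, gave 114, 181 and 259 UMIs, or 3.43, 4.96 and 5.08 per 1000 reference UMIs, and was 1.48-fold higher (1.18 to 1.86) in IDD+HID and 1.45-fold higher (1.14 to 1.85) in IDD+HTF. Smad7, the feedback inhibitor, stood at 2.73, 2.38 and 2.88 per 1000 and was 1.05-fold higher (0.806 to 1.38) in IDD+HID. Atoh8 gave 6, 2 and 5 UMIs, too few for a difference to be detectable. Of 6 measured members of 9, 0 were at least 1.5-fold higher and 0 lower in IDD+HID, from Id4 (1.26-fold lower) and Smad6 (1.22-fold lower) to Id3 (1.23-fold higher) and Id1. As CPM Id1 was 2.56-fold higher (2.05 to 3.22) and Smad7 1.82-fold higher (1.39 to 2.39) in IDD+HID, and relative to the median hepatocyte-enriched gene 3 of the 6 were at least 1.5-fold higher and 0 lower (median 0.64). These genes are made by several liver cell types: in barcodes of cell size, those rich in the reference held Id1 at 0.0713 and Smad7 at 0.0674 of the level in those poor in it, where Hamp stood at 46.6.

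Per reference, iron carriers and storage proteins showed small ratios, whose direction turned with the scale for several. Trf, the transferrin made by hepatocytes, stood at 237, 211 and 177 per 1000 reference UMIs and was 1.34-fold lower (1.30 to 1.38) in IDD+HID and 1.12-fold lower (1.08 to 1.15) in IDD+HTF. The ferritin chains stood at 93.3, 81.9 and 81.6 (Fth1) and 83.0, 77.4 and 90.4 (Ftl1) per 1000, Fth1 1.14-fold lower and Ftl1 1.09-fold higher in IDD+HID. The iron exporter ferroportin (Slc40a1) stood at 11.8, 14.0 and 13.2 per 1000 and was 1.13-fold higher (0.993 to 1.28). The transferrin receptor Tfrc gave 28, 29 and 28 UMIs and was 1.53-fold lower (0.875 to 2.69) per reference but 1.13-fold higher (0.644 to 1.98) as CPM, so its direction turned with the scale. Trf and Fth1 turned too, to 1.29-fold higher (1.25 to 1.33) and 1.51-fold higher (1.44 to 1.59) as CPM. In rank-chosen empty droplets Ftl1 and Slc40a1 turned, to -0.82 and -0.49 on the log2 scale per reference, and Fth1 stood at -1.48. Of 17 measured members of 20, 0 were at least 1.5-fold higher and 6 lower in IDD+HID (median -0.46). That far lower were 26.3% of all genes and 58.7% of hepatocyte-enriched genes. Relative to the median hepatocyte-enriched gene 17.2% of such genes were higher and 29.2% lower. On that scale 2 of the 17 members were higher and 0 lower. The lowest were Pcbp1, an iron chaperone that also binds RNA (357, 281 and 315 UMIs; 1.74-fold lower, 1.49 to 2.03), and Ireb2, an iron regulatory protein (54, 35 and 51 UMIs; 1.62-fold lower, 1.09 to 2.43). Heme genes gave 0 higher and 4 lower of 13 measured (median -0.05), a share near that of all genes, and 8 higher and 0 lower relative to the median hepatocyte-enriched gene. Hmox1, which breaks down heme, stood at 4.93, 6.27 and 4.10 per 1000 and was 1.20-fold lower (0.974 to 1.48), but 1.44-fold higher (1.17 to 1.77) as CPM.

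**Figure D2:**
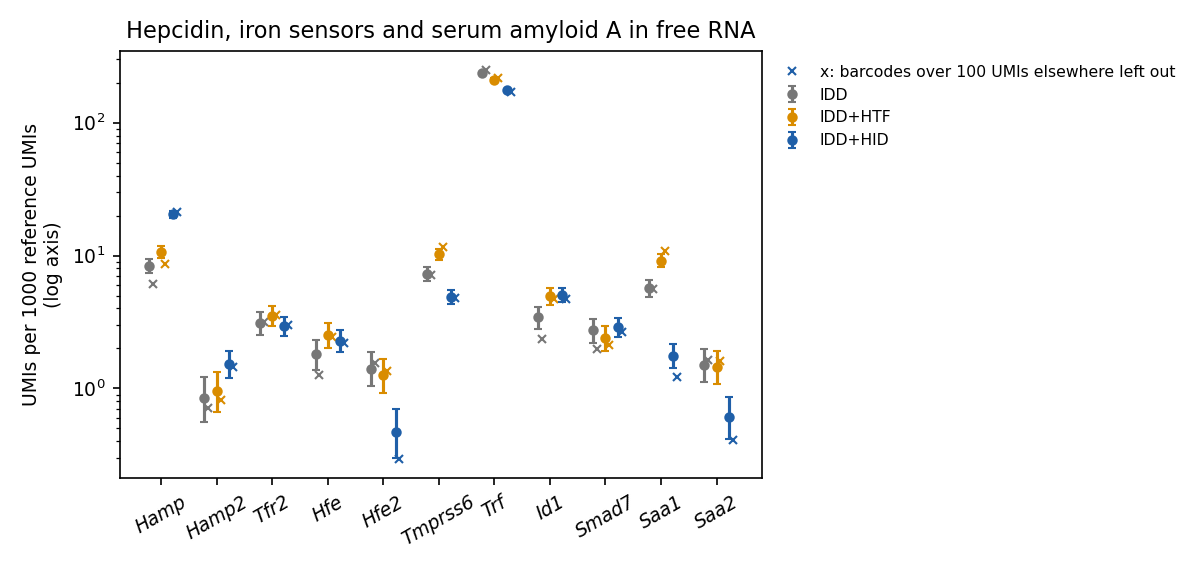
Hepcidin, iron sensors, BMP targets and serum amyloid A genes, as UMIs per 1000 reference UMIs on a log axis. Circles are the low droplets of each library with exact Poisson 95% intervals for counting error, and crosses leave out barcodes with over 100 UMIs in another library. Hamp stands at 8.35, 10.7 and 20.5 in IDD, IDD+HTF and IDD+HID, and Hfe2 at 1.41, 1.26 and 0.471.

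Over the hepatocyte lists as a whole, most transcripts that passed 1.5-fold in the iron-fed library were lower per reference. Of 439 genes in 20 lists, with the reference genes left out, 335 reached 50 UMIs in IDD and IDD+HID together and 104 did not. Among the 335, 16 were at least 1.5-fold higher in IDD+HID (4.78%) and 164 at least 1.5-fold lower (49%), with a median of -0.57 on the log2 scale. Over 366 hepatocyte-enriched genes 3.28% were higher and 58.7% lower, with a median of -0.74. A gene was called hepatocyte-enriched where barcodes of 1000 or more UMIs with at least 5% reference UMIs held at least 10 times the level of those with under 2%. The balance depended on the scale. As CPM 96 of the 335 were higher and 76 lower, beside 44.1% and 5.53% of all genes. List genes were thus less often higher and more often lower than all genes on that scale too. Relative to the median hepatocyte-enriched gene 91 were higher and 80 lower, beside 17.2% and 29.2% of the 366. The same shares stand beside the counts of single lists below. In unshared droplets 26 of 319 were higher (8.15%) and 183 lower (57.4%) per reference, beside 13.2% and 29.7% of all genes and 3.49% and 70.1% of hepatocyte-enriched genes. In rank-chosen empty droplets 18 of 361 were higher (4.99%) and 242 lower (67%), beside 2.08% and 76.8% of all genes and 3.7% and 66% of hepatocyte-enriched genes. The median hepatocyte-enriched gene was 1.66-fold lower per reference, and the median gene of all was 1.44-fold higher as CPM in IDD+HID.

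In the holo-transferrin library fewer list genes passed 1.5-fold. Of 328 measured, 13 were higher than in IDD (3.96%) and 82 lower (25%) per reference, beside 3.21% and 10.9% of 6110 genes in all and 3.85% and 15.4% of hepatocyte-enriched genes. As CPM 87 of the 328 were higher and 37 lower, beside 22% and 1.85% of all genes. Set directly against IDD+HTF, IDD+HID had 17 of 325 list genes higher (5.23%) and 140 lower (43.1%) per reference, beside 4.27% and 17.1% of all genes and 3.9% and 57.9% of hepatocyte-enriched genes. That split was 33 higher and 77 lower as CPM (17.2% and 7.73% of all genes), and 90 higher and 42 lower relative to the median hepatocyte-enriched gene. These comparisons share libraries and are not independent readings.

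**Figure D3:**
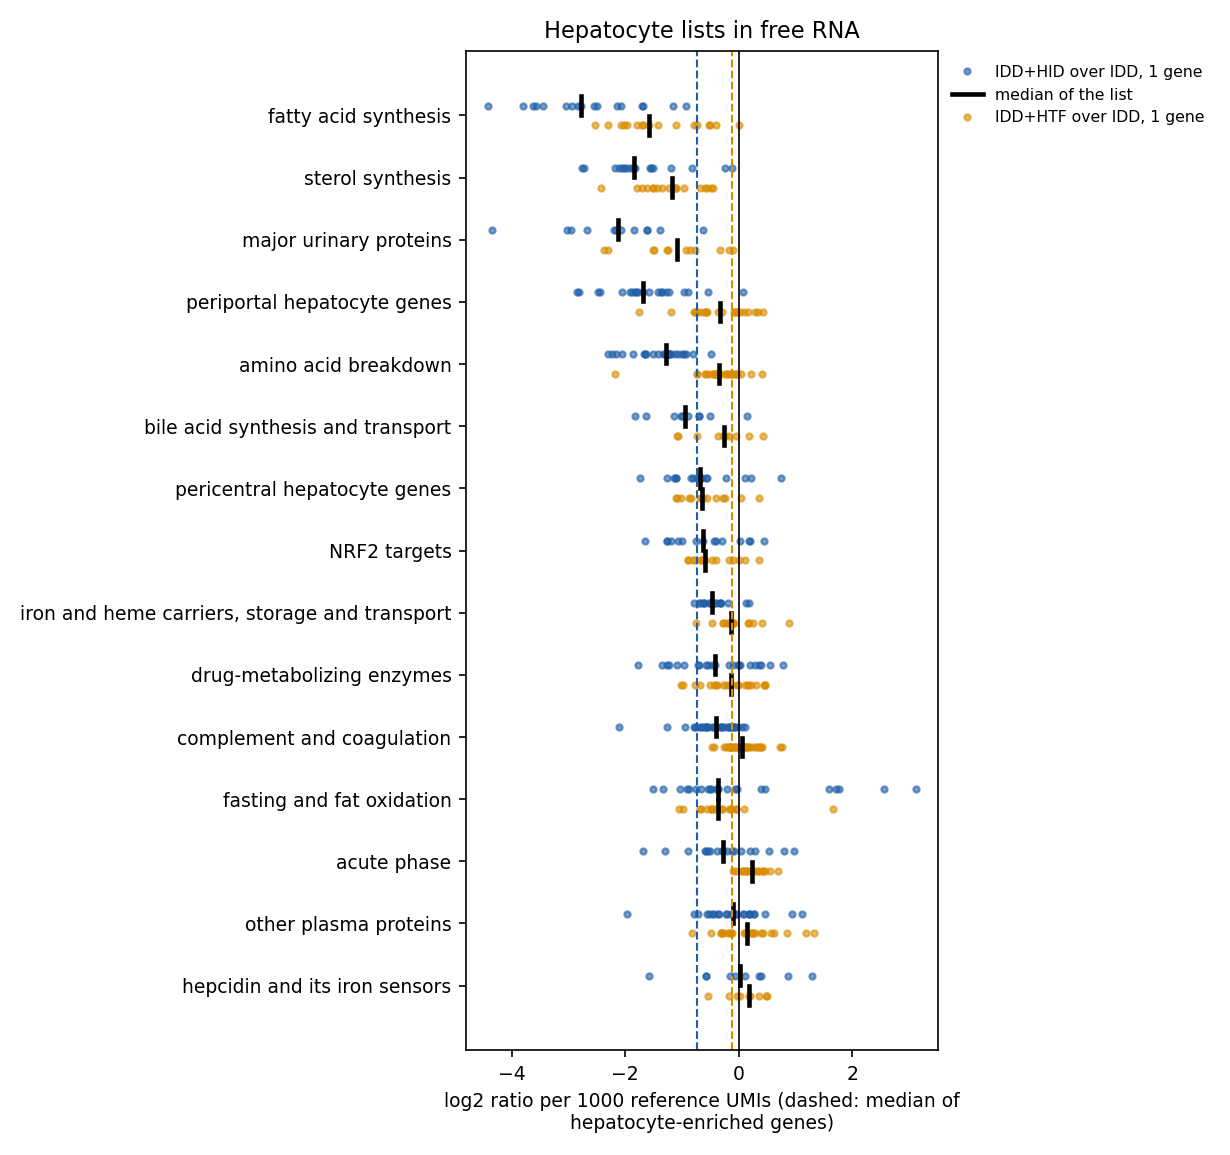
Log2 ratios per reference of the measured members of hepatocyte lists, IDD+HID over IDD and IDD+HTF over IDD, with 1 point per gene and a black bar at the list median. Dashed lines mark the median of hepatocyte-enriched genes in each comparison. The fatty acid synthesis list has the lowest median in IDD+HID, -2.78.

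Fatty acid synthesis had the lowest list median in the iron-fed library. Its genes carry carbon from sugar into long-chain fatty acids and their glycerol esters. Summed over the list they stood at 383, 151 and 59.4 per 1000 reference UMIs in IDD, IDD+HTF and IDD+HID. All 17 measured members of 20 were at least 1.5-fold lower in IDD+HID (median -2.78 on the log2 scale), and 13 of 17 were in IDD+HTF (median -1.59). Over all genes 26.3% were that far lower in IDD+HID and 10.9% in IDD+HTF, and over hepatocyte-enriched genes 58.7% and 15.4%. On 6 scales, which were the reference, a wide reference of 24 genes, CPM with and without Mir6236 and Alkbh5, TMM and median-of-ratios, 15 to 17 of the 17 were at least 1.5-fold lower in IDD+HID and 0 were higher. In unshared droplets 17 of 17 were lower (median -3.47), where 29.7% of all genes were, and in rank-chosen empty droplets 18 of 18 (median -3.93), where 76.8% of all genes were.

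Fasn, fatty acid synthase (chromosome 11, 120805846 to 120824547, minus strand), gave 406, 77 and 29 UMIs, or 12.2, 2.11 and 0.569 per 1000 reference UMIs. It was 21.5-fold lower (14.7 to 32.5) in IDD+HID and 5.79-fold lower (4.52 to 7.48) in IDD+HTF. Thrsp, a nuclear protein that promotes lipogenesis (chromosome 7, 97412938 to 97417730, minus strand), gave 781, 218 and 86 UMIs, or 23.5, 5.97 and 1.69 per 1000. It was 13.9-fold lower (11.1 to 17.6) in IDD+HID and 3.93-fold lower (3.38 to 4.59) in IDD+HTF. For both genes IDD was highest, IDD+HTF intermediate and IDD+HID lowest, and the counting intervals of the 3 levels did not overlap. In unshared droplets Fasn gave 371, 57 and 10 UMIs and was 68.1-fold lower (36.6 to 143) in IDD+HID, and Thrsp gave 718, 171 and 21 and was 62.8-fold lower (40.7 to 102). Scd1, stearoyl-CoA desaturase, named after its values were seen (chromosome 19, 44394455 to 44407879), had the most UMIs of the list (8463, 3463 and 1888), stood at 254, 94.8 and 37.0 per 1000 and was 6.87-fold lower (6.53 to 7.22) in IDD+HID and 2.68-fold lower (2.58 to 2.79) in IDD+HTF.

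Other lipogenic enzymes were lower in the same order. Gpam, which starts the assembly of glycerolipids, gave 214, 73 and 30 UMIs and was 10.9-fold lower (7.44 to 16.6) per reference in IDD+HID and 3.22-fold lower (2.46 to 4.26) in IDD+HTF. Me1, the malic enzyme that supplies NADPH, gave 173, 55 and 32 UMIs and was 8.29-fold lower (5.66 to 12.5) and 3.45-fold lower (2.53 to 4.76). Tkfc, which passes fructose carbon on to glycolysis, gave 190, 97 and 38 UMIs and was 7.66-fold lower (5.39 to 11.2) and 2.15-fold lower (1.67 to 2.77). The members nearest the control were the desaturases of polyunsaturated fatty acids. Fads2 gave 234, 258 and 160 UMIs and was 2.24-fold lower (1.83 to 2.76) in IDD+HID, with a ratio of 1.00 in IDD+HTF. Fads1 gave 88, 68 and 71 UMIs and was 1.90-fold lower (1.37 to 2.63) in IDD+HID and 1.42-fold lower (1.02 to 1.98) in IDD+HTF.

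The 150 bases before the start of Fasn and Thrsp, the members with the lowest ratios, are printed with capitals on CCAAT, the box bound by NF-Y, a factor that works beside the lipogenic regulator SREBP (ATTGG on the other strand). The sequences are from RefSeq (GRCm38.p6, minus strand), chr11:120824548-120824697 for Fasn and chr7:97417551-97417700 for Thrsp, again counted from the RefSeq start, which for Thrsp lies inside the GENCODE span.
Fasn: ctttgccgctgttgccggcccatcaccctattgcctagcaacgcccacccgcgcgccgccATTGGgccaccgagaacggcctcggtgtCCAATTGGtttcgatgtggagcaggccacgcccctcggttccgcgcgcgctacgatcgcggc
Thrsp: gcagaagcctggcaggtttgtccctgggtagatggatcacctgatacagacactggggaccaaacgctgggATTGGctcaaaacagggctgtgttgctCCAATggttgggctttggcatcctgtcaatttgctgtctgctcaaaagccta
The box lay 90 to 86, 62 to 58 and 59 to 55 bases before the start of Fasn, the last pair sharing bases, and 79 to 75 and 52 to 48 bases before that of Thrsp. It was in the window of 10 of 17 list genes with a promoter in the table (58.8%) and of 24.5% of all 32851 promoters. The sterol element TCACNCCAC (GTGGNGTGA on the other strand) was in 1 of the 17, Mlxipl, and in 0.639% of all promoters.

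**Figure D4:**
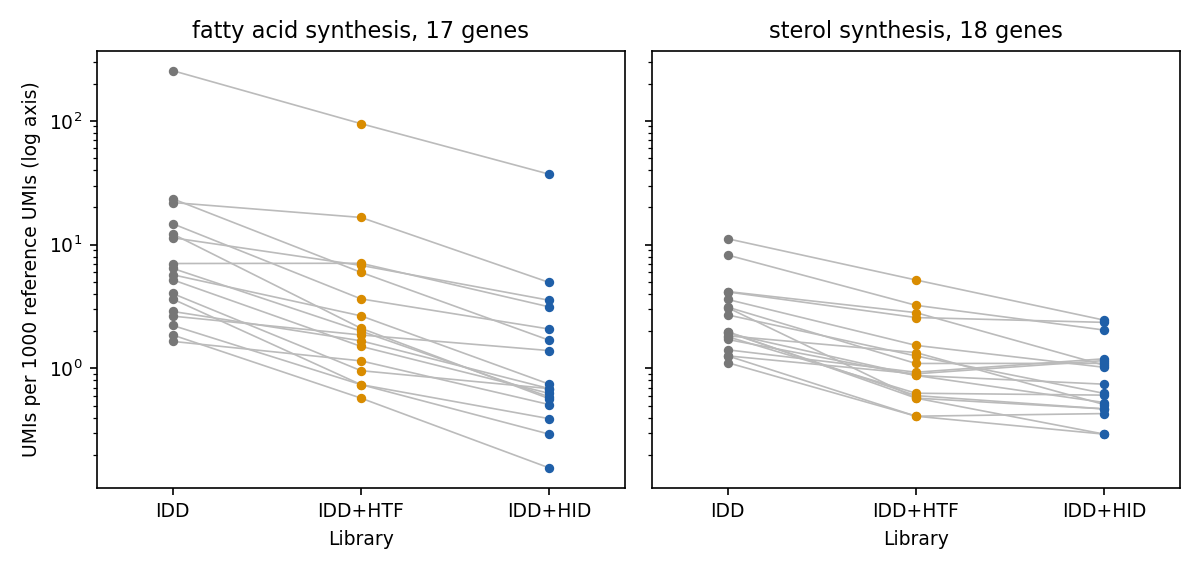
Measured members of the fatty acid and sterol synthesis lists in each library, as UMIs per 1000 reference UMIs on a log axis, with a line joining the values of 1 gene. Fasn stands at 12.2, 2.11 and 0.569 in IDD, IDD+HTF and IDD+HID.

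Sterol synthesis was lower in both iron libraries. The list summed to 60.6, 27.6 and 18.5 per 1000 reference UMIs. Of 18 measured members of 24, 16 were at least 1.5-fold lower in IDD+HID (median -1.85) and 15 of 18 in IDD+HTF (median -1.18). That far lower were 26.3% and 10.9% of all genes, and 58.7% and 15.4% of hepatocyte-enriched genes. Relative to the median hepatocyte-enriched gene 29.2% of such genes were lower in IDD+HID and 12.1% in IDD+HTF. On that scale 14 of the 18 list members were lower and 1 higher in IDD+HID, and 13 lower and 0 higher in IDD+HTF. As CPM 14 were lower in IDD+HID and 1, Stard4, was higher. Squalene epoxidase (Sqle; chromosome 15, 59315077 to 59331192) gave 66, 21 and 15 UMIs and was 6.74-fold lower (3.81 to 12.7) in IDD+HID and 3.45-fold lower (2.08 to 5.93) in IDD+HTF. Farnesyl diphosphate synthase (Fdps) gave 103, 21 and 24 UMIs and was 6.58-fold lower (4.19 to 10.7) and 5.38-fold lower (3.34 to 9.06). Both enzymes were low in each iron library. Nearest the control were Srebf2, the sterol-regulated transcription factor (47, 34 and 61 UMIs; 1.18-fold lower, 0.790 to 1.76, in IDD+HID), and the sterol carrier Stard4 (42, 33 and 59 UMIs; 1.09-fold lower, 0.716 to 1.65). Of the 18 measured, 3 were hepatocyte-enriched.

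Genes of fasting and fat oxidation divided. Cyp4a10, a fatty acid omega-hydroxylase and classical target of the fatty acid receptor PPAR-alpha (chromosome 4, 115518264 to 115533649), gave 9, 19 and 120 UMIs, or 0.270, 0.520 and 2.35 per 1000 reference UMIs. It was 8.70-fold higher (4.43 to 19.5) in IDD+HID and 1.92-fold higher (0.829 to 4.83) in IDD+HTF. Cyp4a14, its neighbour (chromosome 4, 115486200 to 115496142), gave 12, 9 and 108 UMIs, or 0.361, 0.246 and 2.12 per 1000, and was 5.87-fold higher (3.23 to 11.7) in IDD+HID and 1.46-fold lower (0.566 to 3.93) in IDD+HTF. Most of the UMIs of IDD lay in shared droplets: unshared droplets gave 1, 7 and 104 UMIs of Cyp4a10, which was 56.6-fold higher (9.95 to 2259) in IDD+HID, and 2, 1 and 101 of Cyp4a14, which was 27.5-fold higher (7.42 to 230.2). Rank-chosen empty droplets gave 4, 19 and 573 UMIs of Cyp4a10, and 0, 2 and 594 of Cyp4a14. Copies of this family are alike, and reads may have been split among them.

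The other members at least 1.5-fold higher in IDD+HID, named after their values were seen, were the pantetheinase Vnn1 (13, 12 and 68 UMIs; 3.41-fold higher, 1.87 to 6.74), the acyl-CoA thioesterase Acot1 (10, 12 and 50 UMIs; 3.26-fold higher, 1.64 to 7.22) and the lipase inhibitor Angptl4 (17, 59 and 78 UMIs; 2.99-fold higher, 1.76 to 5.40). In IDD+HTF Angptl4 was 3.16-fold higher (1.82 to 5.79) and was the 1 measured member at least 1.5-fold higher. Relative to the median hepatocyte-enriched gene 2 of 18 measured members were at least 1.5-fold lower in IDD+HTF, beside 12.1% of such genes. At least 1.5-fold lower in IDD+HID were 7 of 23 measured members (36 listed). Among them was Cyp4a12a, an omega-hydroxylase more abundant in males (76, 81 and 46 UMIs; 2.53-fold lower, 1.73 to 3.74). The list median was -0.37. As CPM 10 were higher and 1 lower, where 44.1% and 5.53% of all genes were, so the share higher was near that of all genes. Relative to the median hepatocyte-enriched gene 9 were higher and 2 lower, beside 17.2% and 29.2% of such genes. Per reference 3.23% of all genes were at least 1.5-fold higher in IDD+HID and 26.3% lower. For hepatocyte-enriched genes these shares were 3.28% and 58.7%. Each list member named as higher in IDD+HID reached 50 UMIs mainly through its count in that library.

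Major urinary proteins, pheromone carriers made by hepatocytes under growth hormone, were lower in the iron-fed library. Summed over the family they stood at 977, 718 and 402 per 1000 reference UMIs. All 12 measured copies of 21 were at least 1.5-fold lower in IDD+HID (median -2.12), 11 of them also as CPM, and 9 of 12 in IDD+HTF (median -1.09), where 6 were as CPM. Relative to the median hepatocyte-enriched gene 11 of the 12 were lower in IDD+HID and 9 in IDD+HTF, beside 29.2% and 12.1% of such genes. Among hepatocyte-enriched genes 58.7% and 15.4% were that far lower per reference, and among all genes 26.3% and 10.9%. Mup9 (chromosome 4, 60418046 to 60421952) gave 80, 17 and 6 UMIs and was 20.4-fold lower (8.99 to 57.3) in IDD+HID and 5.16-fold lower (3.03 to 9.30) in IDD+HTF. Mup18 gave 117, 67 and 22 UMIs and was 8.15-fold lower (5.14 to 13.5) and 1.92-fold lower (1.41 to 2.63). Mup17 gave 2064, 457 and 407 UMIs and was 7.77-fold lower (6.98 to 8.67) and 4.96-fold lower (4.48 to 5.50). Copies near the control in IDD+HTF were Mup21 (544, 556 and 317 UMIs; 2.63-fold lower in IDD+HID and 1.07-fold lower in IDD+HTF) and Mup3 (11221, 10971 and 11135 UMIs; 1.54-fold lower and 1.12-fold lower). The Mup genes are near-identical, so values of single copies are uncertain.

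Genes of the periportal zone, where blood enters the liver lobule, were lower in the iron-fed library. The list summed to 192, 143 and 67.1 per 1000 reference UMIs. Of 21 measured members of 25, 19 were at least 1.5-fold lower in IDD+HID (median -1.69) and 0 higher, and in IDD+HTF 7 of 22 were lower (median -0.33). The shares lower in IDD+HID and IDD+HTF were 58.7% and 15.4% of hepatocyte-enriched genes, and 26.3% and 10.9% of all genes. Relative to the median hepatocyte-enriched gene 15 of the 21 were lower and 1 higher in IDD+HID, beside 29.2% and 17.2% of such genes. In IDD+HTF 5 of the 22 were lower and 0 higher on that scale, beside 12.1% and 8.24%. Tat, tyrosine aminotransferase (chromosome 8, 109990437 to 109999803), gave 254, 122 and 54 UMIs and was 7.21-fold lower (5.36 to 9.86) in IDD+HID and 2.28-fold lower (1.83 to 2.86) in IDD+HTF. Etnppl, a phospholyase of phosphoethanolamine, gave 46, 15 and 10 UMIs and was 7.05-fold lower (3.51 to 15.7) and 3.37-fold lower (1.84 to 6.49). These 2 were low in both iron libraries. Named after their values were seen, G6pc, the last step of glucose release, gave 295, 218 and 81 UMIs and was 5.58-fold lower (4.35 to 7.23) in IDD+HID and 1.48-fold lower (1.24 to 1.78) in IDD+HTF, and Cps1, the entry enzyme of the urea cycle, gave 350, 226 and 99 UMIs and was 5.42-fold lower (4.32 to 6.84) and 1.70-fold lower (1.43 to 2.02). Nearest the control were Ctsc, a lysosomal protease of many cell types (1.05-fold higher in IDD+HID), and Atp5a1, a mitochondrial ATP synthase subunit (1.46-fold lower). As CPM 14 members were lower and 1, Ctsc, higher in IDD+HID, while in IDD+HTF 2 were lower and 4 higher.

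Genes of the pericentral zone, at the outflow of the lobule, stood near hepatocyte-enriched genes as a whole. Of 17 measured members of 26, 11 were at least 1.5-fold lower in IDD+HID and 1 higher (median -0.68). Among hepatocyte-enriched genes 58.7% were that far lower and 3.28% higher (median -0.74), and among all genes 26.3% were lower. Relative to the median hepatocyte-enriched gene 3 of the 17 were higher and 1 lower (median 0.06), beside 17.2% and 29.2% of such genes. The 1 member higher per reference was Cyp2e1, the ethanol-metabolizing cytochrome, with 459, 646 and 1178 UMIs. It was 1.67-fold higher (1.5 to 1.87) in IDD+HID and 1.28-fold higher (1.14 to 1.45) in IDD+HTF. Ahr, the aryl hydrocarbon receptor, was 1.16-fold higher (0.759 to 1.80) in IDD+HID. Gulo, the last enzyme of vitamin C synthesis, gave 165, 85 and 76 UMIs and was 3.33-fold lower (2.52 to 4.43) and 2.13-fold lower (1.63 to 2.80). Cyp2c29 gave 186, 130 and 118 UMIs and was 2.42-fold lower (1.91 to 3.07) and 1.57-fold lower (1.25 to 1.98). As CPM 3 members were higher and 1 lower in IDD+HID, where 44.1% and 5.53% of all genes were. The direction of this list thus turned with the scale. The difference between the zones was not tested.

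Amino acid breakdown was lower per reference in the iron-fed library. The list summed to 109.7, 89.3 and 42.6 per 1000 reference UMIs. At least 1.5-fold lower were 24 of 25 measured members in IDD+HID (median -1.28) against 4 of 26 in IDD+HTF (median -0.34). Of hepatocyte-enriched genes 58.7% were that far lower in IDD+HID and 15.4% in IDD+HTF, and of all genes 26.3% and 10.9%. The count in IDD+HTF was thus near the share of hepatocyte-enriched genes. Relative to the median hepatocyte-enriched gene 11 of the 25 were lower and 0 higher in IDD+HID, beside 29.2% and 17.2% of such genes. Dpys, of pyrimidine breakdown, gave 87, 21 and 27 UMIs and was 4.94-fold lower (3.17 to 7.91) in IDD+HID and 4.55-fold lower (2.80 to 7.71) in IDD+HTF. Kynu, kynureninase, gave 46, 46 and 15 UMIs and was 4.70-fold lower (2.58 to 9.06) and 1.10-fold lower (0.713 to 1.69). Dpys was low in both iron libraries and Kynu in the iron-fed one. Nearest the control were Prodh2, hydroxyproline dehydrogenase (1.74-fold lower), and Upb1, of pyrimidine breakdown (1.4-fold lower). As CPM 10 of the 25 were lower and 0 higher in IDD+HID.

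Bile acid and drug-metabolizing genes were lower per reference for part of their members. Of 10 measured bile acid genes of 18, 8 were at least 1.5-fold lower in IDD+HID (median -0.95), and as CPM 2 were lower and 1 was higher. Relative to the median hepatocyte-enriched gene 2 of the 10 were lower and 1 higher, beside 29.2% and 17.2% of such genes. Baat, which conjugates bile acids to amino acids, gave 44, 23 and 19 UMIs and was 3.55-fold lower (2.03 to 6.44), and the bile salt export pump Abcb11 gave 129, 136 and 64 UMIs and was 3.09-fold lower (2.27 to 4.24). At the other end stood the uptake carrier Slc10a1 (1.42-fold lower) and the repressor Nr0b2 (1.11-fold higher, 0.620 to 2.03). Of 23 measured drug-metabolizing enzymes of 28, 8 were lower and 1 higher (median -0.42), beside 26.3% of all genes and 58.7% of hepatocyte-enriched genes lower. Relative to the median hepatocyte-enriched gene 10 were higher and 2 lower. The 1 higher per reference was Cyp3a11 (75, 81 and 198 UMIs; 1.72-fold higher, 1.31 to 2.28, in IDD+HID and 1.02-fold lower in IDD+HTF). The carboxylesterase Ces1c (638, 536 and 1429 UMIs) was 1.46-fold higher (1.33 to 1.61) and 1.31-fold lower (1.16 to 1.47). The methyltransferase Inmt (148, 80 and 66 UMIs; 3.44-fold lower, 2.55 to 4.67) was the lowest.

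Secreted plasma proteins stood near the control per reference. Of 25 measured in the list of plasma proteins outside the acute phase and complement (27 listed), 2 were at least 1.5-fold higher and 3 lower in IDD+HID (median -0.11), where 3.28% and 58.7% of hepatocyte-enriched genes were. The reference is itself made of plasma protein transcripts. Relative to the median hepatocyte-enriched gene 14 of the 25 were higher and 1 lower (median 0.63), beside 17.2% and 29.2% of such genes. Pon1, a paraoxonase carried on high-density lipoprotein, gave 117, 118 and 389 UMIs and was 2.17-fold higher (1.76 to 2.69) in IDD+HID and 1.09-fold lower (0.835 to 1.42) in IDD+HTF. Igfals, which stabilizes circulating IGF1, gave 50, 137 and 147 UMIs and was 1.92-fold higher (1.38 to 2.70) and 2.50-fold higher (1.79 to 3.52). Pon1 was high in the iron-fed library and Igfals in both iron libraries. Igf1 was 1.73-fold lower (1.52 to 1.98) in IDD+HID, and its binding protein Igfbp1, a gene repressed by insulin, gave 123, 76 and 48 UMIs and was 3.93-fold lower (2.79 to 5.60) and 1.78-fold lower (1.32 to 2.4). Of 32 complement and coagulation genes, 9 were lower and 0 higher per reference (median -0.41), a share near the 26.3% of all genes that were lower. As CPM 1 was lower and 10 higher, beside 5.53% and 44.1% of all genes. Relative to the median hepatocyte-enriched gene 8 were higher and 1 lower, beside 17.2% and 29.2% of such genes. C3, the central complement protein, was 1.04-fold higher (0.982 to 1.09) and the lectin Mbl1 1.07-fold higher (0.849 to 1.36) in IDD+HID, while C9, of the membrane attack complex, was 2.39-fold lower (2.06 to 2.78). Prekallikrein (Klkb1) gave 11060, 10995 and 3926 UMIs, was 4.32-fold lower (4.16 to 4.48) and made up much of the list's sum (658, 671 and 340.0 per 1000).

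Saa1, the acute-phase serum amyloid, stood on opposite sides of the control in the iron libraries. It gave 189, 335 and 90 UMIs, or 5.68, 9.17 and 1.76 per 1000 reference UMIs (chromosome 7, 46740497 to 46742980), and was 3.22-fold lower (2.49 to 4.18) in IDD+HID and 1.62-fold higher (1.35 to 1.94) in IDD+HTF. In unshared droplets it was 4.61-fold lower (3.33 to 6.46) and 1.93-fold higher (1.57 to 2.38). Its copy Saa2 gave 50, 53 and 31 UMIs and was 2.47-fold lower (1.55 to 4.00) and 1.04-fold lower (0.689 to 1.55). Over the acute-phase list, made in the liver under interleukin 6, 2 of 19 measured members were at least 1.5-fold higher and 4 lower in IDD+HID (median -0.27), and 1 higher and 0 lower in IDD+HTF. For IDD+HID 3.23% of all genes were higher and 26.3% lower. Relative to the median hepatocyte-enriched gene the list had 8 higher and 1 lower, beside 17.2% and 29.2% of such genes. The higher ones in IDD+HID were the protease inhibitor Serpina3m (34, 45 and 90 UMIs; 1.73-fold higher, 1.15 to 2.64) and the lipopolysaccharide-binding protein Lbp (33, 53 and 99 UMIs; 1.96-fold higher, 1.31 to 3.0).

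Metallothioneins, small zinc- and copper-binding proteins, were higher in the iron-fed library. Mt1 gave 281, 372 and 954 UMIs, or 8.44, 10.2 and 18.7 per 1000 reference UMIs, and was 2.22-fold higher (1.94 to 2.54) in IDD+HID, 5.96-fold higher in unshared droplets, and 1.21-fold higher (1.03 to 1.41) in IDD+HTF. Mt2 gave 68, 72 and 158 UMIs and was 1.52-fold higher (1.13 to 2.05) and 1.04-fold lower (0.733 to 1.46). In barcodes of cell size both were lower where the reference was rich (0.118 and 0.0725 of the level where it was poor), so neither is a hepatocyte-enriched transcript here. Slc30a10, a manganese exporter, gave 64, 59 and 23 UMIs and was 4.26-fold lower (2.61 to 7.20), and the zinc importer Slc39a10 (35, 25 and 24 UMIs) was 2.24-fold lower (1.29 to 3.93). NRF2 targets, which respond to oxidants, had 8 of 15 measured at least 1.5-fold lower and 0 higher per reference in IDD+HID. That is near the share of hepatocyte-enriched genes that were lower, 58.7%, beside 26.3% of all genes. Relative to the median hepatocyte-enriched gene 4 of the 15 were higher and 1 lower (median 0.11), beside 17.2% and 29.2% of such genes. As CPM 4 were higher and 1 lower, beside 44.1% and 5.53% of all genes. The glutathione transferases Gstp1 (163, 96 and 80 UMIs; 3.12-fold lower, 2.38 to 4.13) and Gsta3 (342, 202 and 217 UMIs; 2.42-fold lower, 2.03 to 2.88) were the lowest, Akr1a1 (1.15-fold higher) and Cbr1 (1.36-fold higher) the highest, and Nqo1 gave 4, 3 and 2 UMIs, too few to compare. Of 9 measured glucocorticoid targets 2 were higher and 1, Tat, lower per reference in IDD+HID, beside 3.23% and 26.3% of all genes. The higher ones were Mt2 and the cell-cycle inhibitor Cdkn1a, which gave 87, 124 and 216 UMIs and was 1.62-fold higher (1.26 to 2.10). Relative to the median hepatocyte-enriched gene 7 of the 9 were higher and 1 lower (median 0.80), beside 17.2% and 29.2% of such genes. Of 18 clock genes 4 were measured, and Bhlhe41 (2327, 1697 and 848 UMIs; 4.21-fold lower, 3.89 to 4.55) and Clock (49, 51 and 47 UMIs; 1.60-fold lower, 1.05 to 2.44) were lower in IDD+HID.

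The same ratios were read in large droplets rich in hepatocyte RNA, which are separate droplets from the low ones of the same library. Barcodes with 1000 or more UMIs and at least 5% reference UMIs numbered 1327, 2698 and 6279 in IDD, IDD+HTF and IDD+HID. Hamp gave 579, 1495 and 7351 UMIs there and was 3.38-fold higher (3.11 to 3.69) per reference in IDD+HID and 1.05-fold higher (0.953 to 1.16) in IDD+HTF. Fasn gave 775, 191 and 30 UMIs and was 97.0-fold lower (67.4 to 145) and 9.98-fold lower (8.51 to 11.8). Cyp4a10 gave 3, 20 and 545 UMIs and was 48.4-fold higher (16.5 to 235) and 2.71-fold higher (0.804 to 14.2). Saa1 gave 359, 2027 and 481 UMIs and was 2.80-fold lower (2.44 to 3.22) and 2.30-fold higher (2.05 to 2.58), and Hfe2 gave 75, 158 and 83 UMIs and was 3.39-fold lower (2.45 to 4.69) and 1.17-fold lower (0.875 to 1.55). Each of these genes stood on the same side of the control as in the low droplets. Fasn and Cyp4a10 were named for their ratios in the low droplets. Mice, libraries and reference are shared as well, so these are not independent readings. Mitochondrial genes took 48.4%, 36.1% and 73.5% of the UMIs of these large barcodes.

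Markers of sinusoidal endothelial and Kupffer cells took a larger share of the low droplets of the iron libraries as CPM. Sinusoidal endothelial markers summed to 3583, 5982 and 9111 CPM, 2.54-fold that of IDD in IDD+HID (2.46 to 2.63) and 5.83-fold in unshared droplets, with 13 of 13 members at least 1.5-fold higher in IDD+HID and 9 of 13 in IDD+HTF. The highest ratio was that of Dnase1l3, a secreted nuclease, with 1292, 2121 and 4415 UMIs, 3.85-fold higher (3.62 to 4.10) in IDD+HID and 2.04-fold higher (1.90 to 2.18) in IDD+HTF. Markers of Kupffer cells, the resident macrophages, summed to 2896, 5237 and 6065 CPM, with 10 of 11 members higher in IDD+HID and 9 of 11 in IDD+HTF. These counts depended on the scale. Per reference 1 endothelial marker (Dnase1l3) and 1 Kupffer marker (Cd163) were at least 1.5-fold higher in IDD+HID, and with TMM scaling 6 and 6. Relative to the median gene 6 endothelial and 5 Kupffer markers were higher in IDD+HID, where 10.2% of all genes were. As CPM 6 of 7 B cell markers, 4 of 9 T and NK markers, 4 of 7 monocyte and dendritic markers and 2 of 2 neutrophil markers were higher in IDD+HID, where 44.1% of all genes were, and the T and NK count is near that share. Relative to the median gene 3, 2, 1 and 2 of these were higher. The highest ratios included those of Cd79b of the B cell receptor (77, 84 and 194 UMIs; 2.84-fold higher, 2.17 to 3.75) and the calcium-binding S100a8 (59, 73 and 132 UMIs; 2.52-fold higher, 1.84 to 3.49). Stellate cell markers had 0 of 8 higher and 3 lower as CPM, where 44.1% and 5.53% of all genes were. Relative to the median gene 5 of the 8 were lower and 0 higher, beside 14.5% and 10.2% of all genes. Lrat, which esterifies vitamin A, stood at 71, 51 and 30 UMIs (2.10-fold lower, 1.35 to 3.33). The collectin Colec10 stood at 83, 48 and 38 (1.94-fold lower, 1.30 to 2.92).

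Marco, a scavenger receptor of macrophages (chromosome 1, 120474538 to 120505024), stood apart in the holo-transferrin library. It gave 52, 238 and 63 UMIs, or 34.8, 197 and 47.5 CPM, and was 5.67-fold higher (4.19 to 7.82) in IDD+HTF and 1.37-fold higher (0.931 to 2.01) in IDD+HID. In unshared droplets it gave 27, 209 and 36 UMIs and was 9.80-fold higher in IDD+HTF. Other Kupffer markers did not share this order: Clec4f, a lectin specific to Kupffer cells, was 1.74-fold higher in IDD+HTF and 2.31-fold higher in IDD+HID, C1qc 1.46-fold higher and 1.61-fold higher, and the haemoglobin receptor Cd163 1.33-fold higher and 2.75-fold higher.

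Inflammatory genes of any cell type were higher in the iron-fed library as CPM. The list of NF-kB targets and cytokines summed to 998, 1530.4 and 2385 CPM, with 15 of 17 measured members at least 1.5-fold higher in IDD+HID, 12 relative to the median gene and 7 per reference. The chemokine Ccl2 gave 31, 51 and 112 UMIs and was 4.07-fold higher (2.72 to 6.28) in IDD+HID and 2.04-fold higher (1.28 to 3.30) in IDD+HTF. Cxcl2 gave 58, 62 and 195 UMIs and was 3.79-fold higher (2.81 to 5.18) and 1.33-fold higher (0.911 to 1.93). Immediate early and heat shock genes, which are known to respond to tissue digestion, had 22 of 25 higher as CPM, 8 relative to the median gene and 3 per reference, and summed to 7377, 10625 and 13936 CPM. Their part in the cytokine values was not tested. The leading ones were the transcription factors Fosb (179, 276 and 545 UMIs; 3.43-fold higher, 2.89 to 4.09) and Atf3 (157, 177 and 407 UMIs; 2.92-fold higher, 2.43 to 3.54). Of 20 interferon genes 14 were higher as CPM and 4 relative to the median gene, led by the ubiquitin-like Isg15 (53, 118 and 195 UMIs; 4.15-fold higher, 3.05 to 5.73, in IDD+HID and 2.76-fold higher, 1.98 to 3.89, in IDD+HTF) and the protease Usp18 (15, 15 and 36 UMIs; 2.71-fold higher, 1.45 to 5.32). Unfolded protein genes had 9 of 17 higher and hypoxia genes 4 of 12 as CPM, beside 44.1% of all genes. Relative to the median gene 1 of each of these lists was higher, where 10.2% of all genes were.

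**Figure D5:**
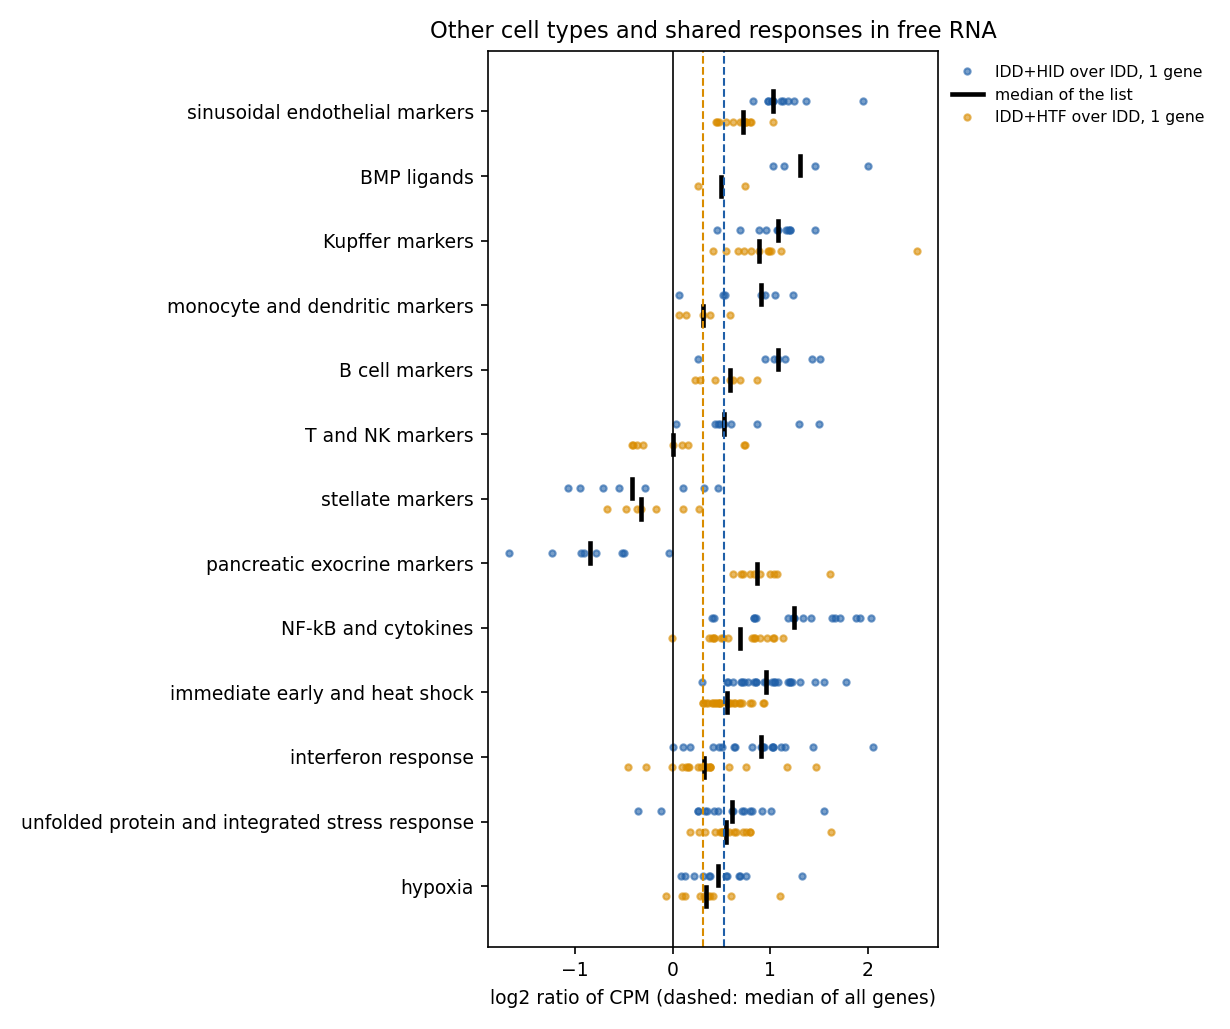
Log2 CPM ratios of the measured members of lists for other cell types and shared responses, IDD+HID over IDD and IDD+HTF over IDD, with 1 point per gene and a black bar at the list median. Dashed lines mark the median of all genes, 0.52 in IDD+HID and 0.31 in IDD+HTF, and the zero line marks no difference.

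Over all 6687 genes measured in IDD and IDD+HID, 982 were at least 2-fold higher as CPM in IDD+HID (14.7%) and 169 lower (2.53%). Without Mir6236 and Alkbh5 in the total the split was 295 and 302, and with TMM scaling 141 and 408. In unshared droplets 1966 of 5392 were higher (36.5%) and 245 lower (4.54%). In IDD+HTF 239 of 6110 were higher (3.91%) and 42 lower (0.687%). That split was 55 and 76 without Mir6236 and Alkbh5 in the total and 56 and 75 with TMM scaling, so its balance turned. Among genes with 200 or more UMIs the 8 with the lowest CPM ratio in IDD+HID were Alkbh5, an RNA demethylase (28175, 4218 and 1502 UMIs; 16.6-fold lower, 15.8 to 17.5), the annotated microRNA Mir6236 (275668, 19843 and 18563 UMIs; 13.2-fold lower, 13 to 13.4), Fasn, Thrsp, Gpam, Me1, Mup17 and Tkfc. The last 6 are lipogenic genes and a urinary protein. The 8 with the highest were the pseudogene Rps13-ps1 (20, 52 and 198 UMIs; 11.2-fold higher, 7.04 to 18.7), the unnamed transcript Gm26532 (40, 55 and 167 UMIs; 4.71-fold higher, 3.32 to 6.83), Hamp (4.24-fold higher, 3.71 to 4.86), the activation marker Cd83 (49, 71 and 181 UMIs; 4.17-fold higher, 3.02 to 5.84), Isg15, the receptor Notch2 (50, 85 and 175 UMIs; 3.95-fold higher, 2.87 to 5.52), Dnase1l3 and Mt1 (3.83-fold higher, 3.35 to 4.39). Hamp was the 1 hepatocyte-enriched gene among these 8. Rps13-ps1 is a pseudogene, and its reads may belong to other copies of the gene.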

How the data were processed

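Livers of 3 mice, 1 per group, were profiled by droplet single-cell RNA sequencing with the 10x Genomics 3' chemistry, per the labels' protocols. The authors deposited whole-number UMI counts per gene and barcode, not normalized and down to barcodes with 1 UMI. GRCm38 is the build and Seurat 4 a tool listed per the submitters' processing notes. No aligner, counter or annotation is given in the sources used here. Barcodes with 1 to 100 UMIs were summed per library (totals of 1496403, 1206896 and 1326894 UMIs in IDD, IDD+HTF and IDD+HID after mitochondrial and ribosomal or repeat features were left out). Gene positions were taken from GENCODE M21 through 55154 of 55421 identifiers that matched. Genes with 50 or more UMIs in the 2 libraries compared were counted as measured. A gene with few UMIs in 1 library could thus pass through its count in the other. Named genes were a fixed set of iron genes, the 2 highest and 2 lowest measured members of each list, and the 8 highest and 8 lowest of all genes with 200 or more UMIs; exceptions are marked, and some genes the rule names are not reported here. The members and lists were chosen with earlier results of these data known. Counts were not modelled, since 1 library per group leaves no residual spread. Scaling alternatives used TMM factors (edgeR 4.0.16, R 4.3.3) and median-of-ratios factors. Other steps used Python 3.11.15, numpy 2.4.6, scipy 1.17.1 and pandas 2.3.3, and the ratio and interval code was tested on simulated data. The depth sets the precision: a gene at 0 is limited to 3 counts. No cells were called or clustered and doublets were not treated.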

Additional observations from a re-analysis of the deposited data

Results flagged for a closer look

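Transcripts of digestive enzymes, made by acinar cells of the pancreas, were found in the low droplets and differed between the libraries. The 12 listed markers summed to 392, 721 and 225 CPM in IDD, IDD+HTF and IDD+HID. The level in IDD+HTF was 1.84-fold that of IDD (1.66 to 2.05), and 10 of 10 measured members were at least 1.5-fold higher, beside 22% of all genes. They stand outside the comparisons of liver genes. In unshared droplets the ratio was 2.76, with 319, 883 and 26.1 CPM, and in rank-chosen empty droplets it was 5.76. The trypsinogen Try4 gave 47, 58 and 13 UMIs in IDD, IDD+HTF and IDD+HID, and 30, 52 and 0 in unshared droplets, where a count of 0 allows up to 3. The elastase Cela2a gave 77, 102 and 29 UMIs, and 56, 95 and 0 in unshared droplets. The part of this RNA in the other ratios was not tested.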

How the results depend on the processing

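No paired analysis was possible because the labels give each group the same single replicate number and no test was made; leaving out a replicate would leave a group empty. Hepatocyte list genes past 1.5-fold numbered 180 in IDD+HID over IDD (96 at a minimum of 200 UMIs, 104 among hepatocyte-enriched members). In IDD+HTF over IDD they numbered 95 (154 with droplets of 1 to 200 UMIs, 43 and 163 at minimums of 200 and 1 UMIs, 163 in rank-chosen empty droplets, 44 among enriched members). In IDD+HID over IDD+HTF they numbered 157 (41 in droplets of 11 to 100 UMIs, 91 at a minimum of 200). All genes past 2-fold numbered 1151 in IDD+HID over IDD. They were 2153 without barcodes of 1000 or more UMIs in another library and 2211 without those of over 100, 2056, 346 and 10393 at minimums of 20, 200 and 1 UMIs, and 2932 with mitochondrial and ribosomal features kept. With TMM they were 549, with median-of-ratios 552, without Mir6236 and Alkbh5 597 and in rank-chosen empty droplets 2747. In IDD+HTF over IDD the number was 281, and under the same settings in that order 618, 671, 757, 53, 8757, 1685, 131, 132, 131 and 1097; with droplets of 1 to 50 UMIs it was 161 and of 11 to 100 UMIs 816. The Hamp ratio of IDD+HID to IDD, 1.30 on the log2 scale, kept its direction under all alternatives run. It was 1.07 in droplets of 1 to 50 UMIs, 1.51 and 1.81 without shared barcodes of 1000 and over 100 UMIs, 1.52 on the wide reference, 2.09 as CPM, 1.86 in rank-chosen empty droplets and 2.03 relative to the median enriched gene. The reference ratio, 0.79, also kept its direction. It was 0.46, 0.26, 0.50 and 1.24 with droplets of 1 to 50, 1 to 10, 11 to 100 and 1 to 200 UMIs, 1.19 with the left-out features kept, 0.30 with TMM and 0.30 with median-of-ratios, 0.48 without Mir6236 and Alkbh5, 0.96 without barcodes of over 100 UMIs in another library and 1.84 in rank-chosen empty droplets. Tfrc, -0.62 as reported, turned to 0.17 as CPM and 0.12 relative to the median enriched gene. The causes were not tested. Over 17 single genes 143 alternative values stayed within the counting interval, 100 moved outside it and 2, both of Tfrc, turned from past 1.5-fold. Of all 245, 30 lay on the other side of the control, in 10 genes: Fth1, Ftl1, Hfe, Hmox1, Slc40a1, Smad7, Tfr2, Tfrc, Tmprss6 and Trf. As CPM 6 genes turned and in rank-chosen empty droplets 4. Atoh8 and Nqo1 had too few UMIs for alternatives. Leaving out barcodes of over 100 UMIs elsewhere, the rank-chosen empty droplets, Mir6236 and Alkbh5, the enriched members and the median scale were added after seeing the data.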
